A study of Mus musculus with 36 samples.

Results

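The soleus and the extensor digitorum longus (EDL) of wild-type mice were compared, with all 9 wild-type soleus libraries set against all 9 wild-type EDL libraries, 18 of the 36 RNA libraries in the series. The soleus is a postural muscle of the calf, rich in slow fibres. The EDL is a fast muscle of the shin. The remaining 18 libraries came from mice labelled as lacking estrogen-related receptors (ERRs) in muscle. They were used only to look up each difference a second time. The members here are the libraries, chosen by muscle and genotype label and not by any measured value.

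Both groups came from 1-year-old males on the C57BL/6JBom background, per the labels, and carried floxed ERR alleles. The wild-type animals were read as those without Cre recombinase, from a mark in the column names, and the knockout-labelled ones as those carrying Cre under the human alpha-skeletal actin promoter, which is active in muscle fibres. In each muscle there were 3 wild-type libraries from each of 3 classes: the ERRalpha class, the ERRbeta/ERRgamma class and the ERRalpha/ERRgamma class. The class is the set of floxed alleles that the colony carried. EDL columns of 1 class lack a letter for it, and they were taken as ERRalpha because their animal numbers recur in soleus columns lettered for ERRalpha. By those numbers the 18 libraries came from 11 animals, of which 7 gave both muscles.

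The deposited values are log2 signals after quantile normalization, and a missing value was read as not detected. The depth of the libraries is unknown. Between 14092 and 14647 genes were detected per soleus library, and between 13689 and 14399 per EDL library. All differences below are soleus minus EDL on the log2 scale, with the standard error (SE) of a limma fit that had class as a covariate and n = 9 libraries per muscle. Genes counted as called had an adjusted p under 0.05 (Benjamini-Hochberg, over the 12668 genes tested). Fewer cells of a type and less RNA per cell cannot be told apart in whole muscle, here or below. A single soleus library, the ERRalpha/ERRgamma class library numbered 3, stood apart in Schwann cell genes, and results that rest on it are given with and without it. Libraries that stood apart in fat, fibroblast, leukocyte or red blood cell markers are named beside those markers. The contractile markers went with the labels. The slow myosin Myh7 averaged 9.64 ± 0.41 in soleus and -0.13 ± 1.89 in EDL, and the fast myosin Myh4 averaged 6.16 ± 1.96 in soleus and 11.76 ± 0.09 in EDL (SD, n = 9 each).

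Slow and fast muscles differ in more than their myosins and metabolism. The motor neuron imposes a firing pattern, which is long and low in frequency in the soleus and brief and high in frequency in the EDL, and calcium-dependent signals carry this pattern to transcription factors in the fibre nuclei. Fibres keep a memory of their position in the limb, exchange secreted signals with nerve, vessels and connective tissue, and set their excitability with channels and pumps. The genes below are ordered by these roles.

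In all, 7035 of the 12668 genes tested were called, which is 55.5% (31.6% higher and 23.9% lower in soleus). The excess of higher genes depended on the scaling: with libraries recentred, 3412 genes were higher and 3559 lower. With a size of at least 1 on the log2 scale (2-fold) added, 1564 genes or 12.3% were called, 7.74% higher and 4.6% lower. Because more than every other gene passed the first threshold, the 2-fold threshold is used to read most groups. The 5 groups of genes looked at held 1035 tested members among 1738, and 361 were higher and 226 lower. At 2-fold or more, 161 were higher and 102 lower, together 25.4% of the members tested, against 12.3% of all genes tested. The groups were chosen with earlier results of these data known and were made of overlapping families of unlike size and level. These shares are therefore descriptions and not a test. The counts of single lists below are to be read beside the same shares of all genes. Of the 587 members called, 575 had the same direction in the 18 knockout-labelled libraries, as did 6856 of the 7035 called genes of any kind. On their own the knockout-labelled libraries called 56.6% of the genes tested.

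**Figure D1:**
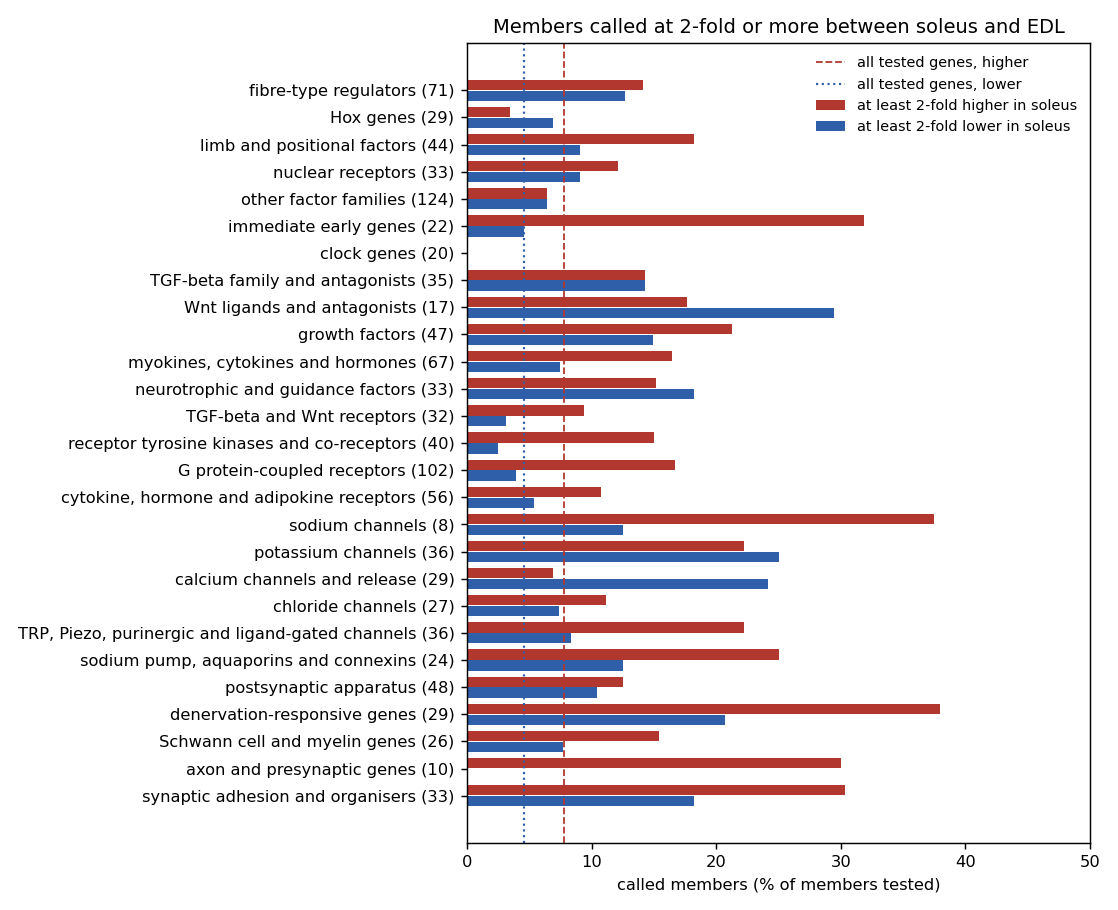
Share of tested members called at 2-fold or more in each gene list (x axis, percent of members tested), higher in soleus (upper, red bars) and lower in soleus (lower, blue bars), with the number of members tested in brackets; the lines mark the same shares for all tested genes, 7.74% and 4.6%. Immediate early genes lean to soleus (31.8% against 4.55%), calcium channel and release genes lean to EDL (6.9% against 24.1%), and clock genes have none past 2-fold.

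Outside contractile and metabolic genes, the largest differences at or above the median level were spread over unlike functions. Besides genes described further on, those highest in soleus were Cyfip2, a regulator of actin assembly, Sbk3, a kinase of the SBK family, the small GTPase Rab15, the lipid droplet protein Cidea, the collagen prolyl hydroxylase P3h2, the ciliary transport protein Ift81, and Lrrc52, an accessory subunit of potassium channels. Cyfip2 had log2 signals of 3.23, 3.66 and 4.45 in soleus, against -2.71, -1.64 and -0.89 in EDL (lowest, median and highest library), a difference of 5.46 ± 0.23, limma adjusted p = 4.43e-13. Those lowest in soleus included the integrin Itga4, the mitochondrial protein Gdap1, the tetraspanin Tspan8, the phospholipase Pla2g7 and the membrane protein Tmem233. Itga4 ran at -4.15, -2.71 and -2.24 in soleus, against 1.60, 2.31 and 2.69 in EDL, a difference of -5.32 ± 0.22, limma adjusted p = 2.59e-13. The soleus and EDL libraries did not overlap for any of these genes, as the rule for naming them required. Among all 12059 genes with a value in every library, 2179 or 18.1% had no overlap.

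Transcription factors were higher in soleus in 105 cases and lower in 66 of 322 tested, beside 31.6% and 23.9% of all genes. At 2-fold or more 37 were higher and 24 lower. The list of fibre-type regulators carried the largest of these differences, with 10 higher and 9 lower at 2-fold among 71 tested. Sim2, a basic helix-loop-helix factor of the single-minded pair, had log2 signals of 2.42, 2.93 and 3.14 in soleus, against -4.55, -3.04 and -2.04 in EDL. Every soleus library lay more than 4 log2 units above every EDL library. The difference was 6.05 ± 0.30, limma adjusted p = 3.03e-12, a 66.2-fold higher level, and within the classes it was 5.80 (ERRalpha), 6.11 (ERRbeta/ERRgamma) and 6.24 (ERRalpha/ERRgamma). Its partner gene Sim1 was higher by 3.49 ± 0.21, limma adjusted p = 6.7e-11.

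Prox1, a homeobox factor known for lymphatic vessels and for slow fibre genes in mouse and zebrafish, had signals of 1.00, 1.72 and 2.18 in soleus, against -4.50, -3.79 and -2.94 in EDL in the 8 EDL libraries that detected it. All 9 soleus libraries were above them, and the difference was 5.45 ± 0.20, limma adjusted p = 1.56e-13. Dach2, a corepressor that responds to denervation, ran at 1.45, 2.18 and 2.79 in soleus, against -1.54, 0.03 and 0.40 in EDL, with no overlap (2.62 ± 0.23, limma adjusted p = 1.24e-08). The TEAD cofactor Vgll2 differed by 1.53 ± 0.11, limma adjusted p = 6.55e-10, Tead1 by 0.80 ± 0.07, limma adjusted p = 4.24e-09 and the calcineurin target Nfatc2 by 1.67 ± 0.20, limma adjusted p = 1.06e-06. Nfatc1, a calcineurin target linked to the slow programme, had 1.87, 2.19 and 2.73 in soleus, against 1.94, 2.14 and 2.52 in EDL. Its libraries overlapped throughout and the gene was not called (0.06 ± 0.08, limma adjusted p = 0.573).

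Factors lower in soleus included several known to act in fast fibres. The large Maf factors Mafa and Maf, which drive the fast myosin Myh4 in mice, had 0.91, 1.39 and 1.90 in soleus, against 4.25, 4.42 and 5.08 in EDL (Mafa) and 1.67, 2.16 and 2.88 in soleus, against 4.74, 4.91 and 5.24 in EDL (Maf). Both separated the muscles fully, with differences of -3.15 ± 0.13, limma adjusted p = 3.01e-13 for Mafa and -2.79 ± 0.14, limma adjusted p = 4.89e-12 for Maf. Six2 was detected in 6 of 9 soleus libraries and in every EDL library, and differed by -4.21 ± 0.33, limma adjusted p = 1.82e-08. The SIX-family cofactors Eya4 and Eya1 were lower by differences of -2.71 ± 0.15, limma adjusted p = 1.83e-11 and -0.70 ± 0.08, limma adjusted p = 6.09e-07. Tbx15, a T-box factor of fast fibres in mice, differed by -1.42 ± 0.06, limma adjusted p = 2.38e-13, its relative Tbx1 by -2.13 ± 0.07, limma adjusted p = 1.07e-14, and Sox6, a repressor of slow fibre genes, by -1.41 ± 0.10, limma adjusted p = 4.68e-10.

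Of the myogenic factors, Myod1 was lower in soleus and myogenin, Myog, was higher. Myod1 ran at 0.80, 1.60 and 2.21 in soleus, against 2.54, 2.76 and 3.36 in EDL, with no overlap (-1.24 ± 0.17, limma adjusted p = 4.53e-06), and Myog at 0.77, 1.36 and 1.99 in soleus, against -1.63, -0.73 and 0.82 in EDL, with overlapping ranges (1.92 ± 0.23, limma adjusted p = 7e-07). Myf6, the myogenic factor of mature fibres, was not called (-0.16 ± 0.10, limma adjusted p = 0.177). Myf5 was higher by 0.81 ± 0.29, limma adjusted p = 0.0224. Satellite cell markers are relevant here because myogenic factors are also made by muscle stem cells: 6 of 11 tested were higher and none lower in soleus, with summed levels (the sum of the unlogged signals) of 622.1 to 927.9 in soleus and 568.4 to 729.9 in EDL. Most of each sum came from desmin, Des, with mean log2 signals of 9.46 in soleus and 9.25 in EDL. The stem cell factor Pax7 averaged -1.23 and -1.89. The 6 higher markers were Calcr, Des, Itga7, Myf5, Pax7 and Sdc4. They are 54.5% of the markers tested, beside 31.6% higher and 55.5% called either way among all genes. At 2-fold or more 2 were higher, or 18.2%, beside 7.74% of all genes. The part of satellite cells in these differences was not tested.

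**Figure D2:**
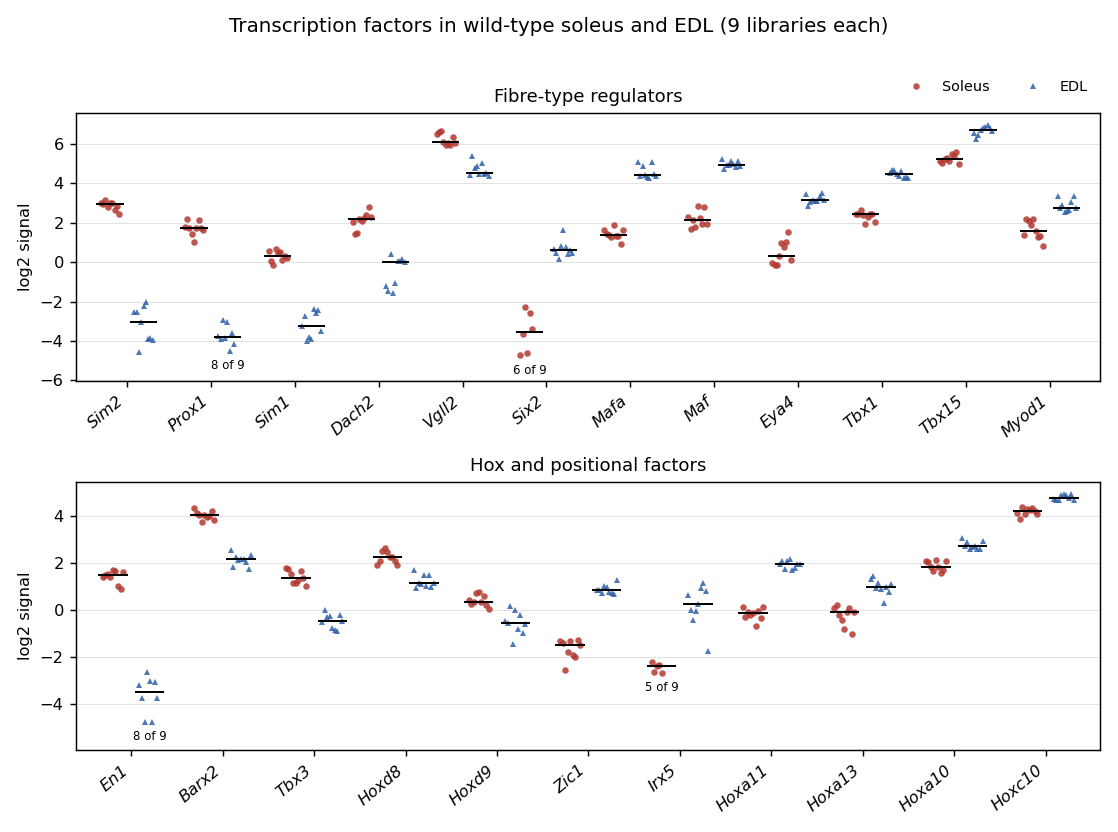
Log2 signal (y axis) of transcription factors in the 9 wild-type soleus (red circles) and 9 wild-type EDL libraries (blue triangles), with the median as a black line and the number of libraries with a value where it is below 9. Sim2, Prox1 and En1 separate the muscles by 4.997 to 6.048 on the log2 scale, and Hoxa11, Zic1 and Mafa lie lower in every soleus library than in any EDL library.

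The Hox genes record position along the body and the limb. Of 29 tested, 7 were higher and 6 lower in soleus, and 3 passed 2-fold. That is 44.8% called and 10.3% at 2-fold, beside 55.5% and 12.3% of all genes. The lower genes were Hoxa7, Hoxa9, Hoxa10, Hoxa11, Hoxa13 and Hoxc10, and among them Hoxa11, Hoxa13, Hoxa10 and Hoxc10 had no overlap between muscles. Hoxa11 ran at -0.68, -0.13 and 0.14 in soleus, against 1.71, 1.96 and 2.14 in EDL, a difference of -2.10 ± 0.10, limma adjusted p = 1.16e-12. Hoxa13, the most distal member of its cluster, ran at -1.04, -0.09 and 0.20 in soleus, against 0.31, 0.97 and 1.42 in EDL (-1.24 ± 0.16, limma adjusted p = 1.55e-06). On the higher side Hoxd8 ran at 1.88, 2.24 and 2.62 in soleus, against 0.93, 1.13 and 1.71 in EDL (1.01 ± 0.12, limma adjusted p = 1.21e-06), and Hoxd9, Hoxc5 and Hoxa4 were higher with overlapping libraries, by 0.96, 0.96 and 0.68. Exons of Hoxa11 overlap those of the antisense gene Hoxa11os, and exons of Hoxc5 and Hoxc10 overlap each other in the annotation. Whether the authors' counting used the strand is not given in the sources used here, so the value of Hoxa11 may hold reads of both genes, and Hoxc5 and Hoxc10, which share exons on the same strand, may not be separable.

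Other positional factors showed the same kind of split between named genes, with 15 higher and 9 lower of 44 tested, and 8 higher and 4 lower past 2-fold. The called share was 54.5%, beside 55.5% of all genes, and 27.3% passed 2-fold, beside 12.3%. En1, the homeobox gene of the ventral limb, was detected in every soleus library and in 8 EDL libraries, at 0.90, 1.47 and 1.69 in soleus, against -4.77, -3.48 and -2.64 in EDL. The ranges lay more than 3 log2 units apart (4.997 ± 0.27, limma adjusted p = 2.61e-11). Barx2, a homeobox factor of muscle precursors, ran at 3.74, 4.01 and 4.33 in soleus, against 1.74, 2.16 and 2.53 in EDL, also without overlap (1.90 ± 0.09, limma adjusted p = 3.64e-12). The T-box genes Tbx3, Tbx18 and Tbx4 were higher by 1.87, 1.84 and 1.31. On the other side stood Zic1, a zinc finger factor of dorsal somites, at -2.56, -1.47 and -1.29 in soleus, against 0.66, 0.85 and 1.28 in EDL, again without overlap (-2.55 ± 0.16, limma adjusted p = 7.23e-11). Irx5 (-2.63 ± 0.33, limma adjusted p = 7.03e-06, with 5 soleus libraries detecting it), Sall4 (-1.64 ± 0.20) and Twist1 (-1.25 ± 0.26) were lower. Pax3, the factor of migrating limb muscle precursors, and Sall1 had no value in any soleus library and a value in all 9 EDL libraries. Fisher's exact test, two-sided, gave p = 4.11e-05 for each, with an adjusted p of 0.0772 over 16894 genes, so neither passed. That p is the smallest this test can give with 9 libraries per muscle. It could pass only if more genes shared it, so the test cannot decide on a single gene. Both were low in EDL, with highest signals of -1.60 for Pax3 and -1.89 for Sall1.

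Nuclear receptors went both ways, with 8 higher and 10 lower of 33 tested, and 4 higher and 3 lower at 2-fold or more. The called share was 54.5%, beside 55.5% of all genes, and 21.2% passed 2-fold, beside 12.3%. The fatty acid sensor Ppara ran at 2.38, 2.72 and 3.29 in soleus, against 1.06, 1.397 and 1.77 in EDL, without overlap (1.37 ± 0.10, limma adjusted p = 8.88e-10), and the thyroid hormone receptor Thrb was higher by 1.13 ± 0.12, limma adjusted p = 1.01e-07. Rxrg, the retinoid X receptor isoform of muscle, ran at 2.12, 2.83 and 3.39 in soleus, against 4.05, 4.16 and 4.62 in EDL and was lower in every soleus library (-1.45 ± 0.11, limma adjusted p = 8.29e-10). The orphan receptors Nr4a1 and Nr2f2 were lower by differences of -1.08 ± 0.19 and -0.99 ± 0.07. Among the receptors that the series deletes, Esrrb and Esrrg had medians of 2.73 and 3.64 in soleus and 0.18 and 1.35 in EDL. The level of Esrra, which the series also deletes, is not reported here.

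Immediate early genes, which respond within minutes to contraction, injury or handling, were higher in soleus in 14 of 22 tested and lower in 2. At 2-fold or more 7 were higher and 1 lower. That is 72.7% called and 36.4% at 2-fold, beside 55.5% and 12.3% of all genes. Fos ran at 0.78, 1.74 and 3.57 in soleus, against -0.49, 0.17 and 1.401 in EDL, with overlapping libraries (1.62 ± 0.34, limma adjusted p = 0.000488). Atf3 (1.59 ± 0.26, limma adjusted p = 3.7e-05) and Btg2 (1.42 ± 0.16, limma adjusted p = 3.99e-07) were higher as well, and Btg2 had no overlap. Nr4a1, which also belongs to this list, went the other way, as did Srf by a small amount (-0.26 ± 0.06). Clock genes showed small differences, 1 higher and 7 lower of 20. The called share was 40%, below the 55.5% of all genes, and 0 passed 2-fold, against 12.3% of all genes. The output factor Tef differed by -0.56 ± 0.06, limma adjusted p = 5.84e-07 and the repressor Bhlhe41 by -0.80 ± 0.08, limma adjusted p = 7.76e-08. Per2, a core clock repressor, differed by -0.41 ± 0.13 in the fit with class and was not called without the class term (adjusted p = 0.283, limma). Time of dissection is not given in the sources used here.

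Among other factor families, Snai3, a zinc finger repressor of the Snail family, ran at 3.91, 4.10 and 4.67 in soleus, against 0.95, 1.53 and 1.99 in EDL, without overlap (2.69 ± 0.15, limma adjusted p = 1.96e-11), and Hes1, a Notch target, was higher by 1.63 ± 0.15, limma adjusted p = 2.2e-08. Sox9, a factor of cartilage and tendon, was higher by 2.50 ± 0.26, limma adjusted p = 1.05e-07. Foxp2, a forkhead repressor, was lower (-1.37 ± 0.21, limma adjusted p = 2.21e-05).

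Secreted factors were higher in soleus in 70 cases and lower in 44 of 199 tested, beside 31.6% and 23.9% of all genes, with 34 higher and 28 lower at 2-fold or more. Wnt signals and their antagonists were split gene by gene. Dkk2, an antagonist that binds Wnt coreceptors, ran at 3.39, 3.65 and 4.49 in soleus, against -3.69, -1.995 and -0.65 in EDL, without overlap (5.82 ± 0.33, limma adjusted p = 2.61e-11). Its relative Dkk3 was lower in soleus by the largest amount of any named gene, with medians of -1.43 in soleus and 6.13 in EDL. Rspo3, a ligand that strengthens Wnt signals, ran at 1.78, 2.33 and 2.72 in soleus, against -2.24, -0.76 and -0.26 in EDL and separated the muscles (3.33 ± 0.24, limma adjusted p = 9.37e-10). Wnt4 ran at -1.87, -1.29 and 0.04 in soleus, against 1.85, 2.30 and 2.59 in EDL, lower in every soleus library (-3.24 ± 0.23, limma adjusted p = 4.67e-10). Wnt5b was higher by 1.21 ± 0.14, limma adjusted p = 4.98e-07, and the decoy receptor Frzb was lower (-1.62 ± 0.25, limma adjusted p = 1.73e-05). In all, 4 of the 17 tested Wnt ligands and antagonists were higher and 6 lower, and 3 were higher and 5 lower at 2-fold or more.

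The receptors of the Wnt and TGF-beta families had 13 higher and 8 lower of 32 tested. At 2-fold or more 3 were higher and 1 lower, together 12.5%, against 12.3% of all genes tested. Fzd9, a Frizzled receptor of Wnt ligands found at the neuromuscular junction of mice, ran at 4.52, 5.65 and 6.42 in soleus, against 2.13, 2.58 and 3.13 in EDL. No soleus library fell to the EDL range, and the difference was 3.06 ± 0.17, limma adjusted p = 1.49e-11. Kremen1, the receptor through which Dickkopf proteins remove Wnt coreceptors, ran at 4.92, 5.27 and 5.39 in soleus, against 2.97, 3.24 and 3.41 in EDL (1.96 ± 0.07, limma adjusted p = 2.43e-14). Fzd10 was higher by 1.55 ± 0.21, limma adjusted p = 3.79e-06 and the atypical Wnt receptor Ryk was lower by a difference of -0.85 ± 0.04, limma adjusted p = 6.65e-12. Lgr5, a receptor for R-spondins, had a value in 3 soleus libraries and 9 EDL libraries and was not tested for a difference.

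In the TGF-beta family, the follistatin gene Fst, whose product binds activins and myostatin, ran at 1.46, 1.96 and 2.79 in soleus, against -0.56, -0.04 and 0.62 in EDL, without overlap (2.05 ± 0.14, limma adjusted p = 3.18e-10). Gdf11, the closest relative of myostatin, ran at -2.34, -1.98 and -0.73 in soleus, against -0.25, 1.19 and 1.55 in EDL and was lower in every soleus library (-2.75 ± 0.24, limma adjusted p = 1.36e-08), and myostatin itself had medians of -0.38 in soleus and 4.02 in EDL. The type I receptor Acvr1b, used by activins and myostatin, ran at 1.74, 1.92 and 2.32 in soleus, against 3.33, 3.88 and 4.14 in EDL (-1.85 ± 0.09, limma adjusted p = 2.82e-12). The type II receptors Acvr2a and Acvr2b were lower by differences of -0.55 ± 0.08 and -0.56 ± 0.11. Bmpr1b was higher by 0.88 ± 0.10 and Bmpr1a lower (-0.56 ± 0.05). In total, 11 of the 35 tested ligands and antagonists were higher and 10 lower, and 5 were higher and 5 lower at 2-fold or more. Gdf1 was among the lower ones (-2.20 ± 0.28), but its exons overlap those of Cers1, from which the counts may not be separable.

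**Figure D3:**
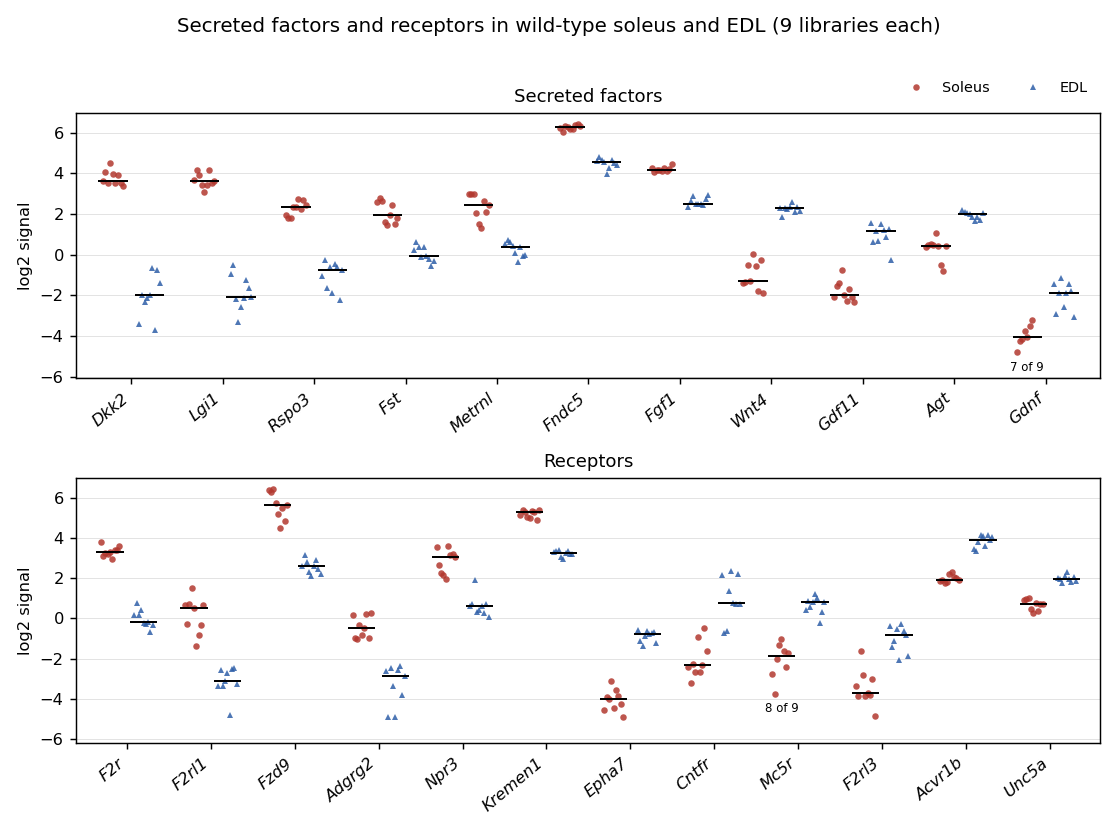
Log2 signal (y axis) of secreted factors (upper panel) and receptors (lower panel) in the 9 wild-type soleus (red circles) and 9 wild-type EDL libraries (blue triangles), with medians as black lines. Dkk2, Lgi1 and F2r lie 3.36 to 5.82 log2 units higher in soleus, and Wnt4 and Epha7 are lower, with differences of -3.24 and -3.19.

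Of the 47 growth factors tested, 19 were higher in soleus, 13 were lower and 15 were not called. At 2-fold or more 10 were higher and 7 lower. Fgf1 ran at 4.04, 4.18 and 4.46 in soleus, against 2.33, 2.51 and 2.93 in EDL, without overlap (1.60 ± 0.08, limma adjusted p = 3.64e-12). Angpt1, the ligand of the endothelial receptor Tie2, was higher by 1.59 ± 0.08, limma adjusted p = 5.91e-12, and Vegfd, a ligand of the lymphatic endothelial receptor, by 1.69 ± 0.15, limma adjusted p = 1.68e-08. Vegfa, the main angiogenic factor of muscle, had 5.44, 5.72 and 6.06 in soleus, against 5.36, 5.45 and 6.08 in EDL and a small difference (0.19 ± 0.07, limma adjusted p = 0.0221), with overlapping libraries. The matricellular genes Cyr61 and Ctgf were higher by 1.83 ± 0.18, limma adjusted p = 5.39e-08 and 1.70 ± 0.24, limma adjusted p = 5.7e-06. Fgfbp1, a carrier that releases fibroblast growth factors from the matrix, ran at -3.99, -1.09 and -0.32 in soleus, against 1.13, 2.18 and 2.85 in EDL and was lower in every soleus library (-3.72 ± 0.43, limma adjusted p = 4.89e-07). Pdgfa was lower as well (-1.07 ± 0.09, limma adjusted p = 9.57e-09).

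Markers of vessel, connective tissue, blood and fat cells moved in the same direction as many of these genes. Called higher in soleus were 8 of 15 endothelial, 7 of 15 fibroblast, 9 of 13 leukocyte and 5 of 10 fat cell markers tested. These are 53.3%, 46.7%, 69.2% and 50%, beside 31.6% higher and 55.5% called either way among all genes. No member of these lists was called lower. At 2-fold or more, 0 endothelial, 4 fibroblast, 5 leukocyte and 3 fat cell markers were higher. These are 0%, 26.7%, 38.5% and 30%, beside 7.74% higher among all genes. Of the fat cell markers, Cidea, Cfd, Fabp4, Pck1 and Plin4 were called, and Adipoq, Plin1, Cidec, Lep and Retn were not. Summed levels ran from 79.9 to 169.4 in soleus and from 74.8 to 131.9 in EDL for endothelial markers. Those of fibroblast markers ran from 222.7 to 705.1 in soleus and from 189.0 to 414.1 in EDL. Leukocyte markers summed to between 27.4 and 97.5 in soleus and between 12.5 and 144.5 in EDL, and fat cell markers to between 241.2 and 738.0 in soleus and between 173.6 and 412.9 in EDL. The ranges overlapped for all 4 lists. Fabp4 made up most of the fat cell sums, with mean log2 signals of 7.94 in soleus and 7.43 in EDL. In EDL, the ERRalpha/ERRgamma library numbered 2 was highest for 14 of 14 leukocyte markers detected in at least 6 libraries (the next EDL library summed to 46.1), and without it 11 leukocyte markers were higher in soleus. In soleus, the ERRalpha/ERRgamma library numbered 1 was highest for 9 of 10 fat cell markers (the next soleus library summed to 345.5) and 12 of 15 fibroblast markers. Without it 4 fat cell and 7 fibroblast markers were higher, as were 62 secreted factors and 83 receptors. Leaving out 1 library at a time gave 5 to 10 higher endothelial and 5 to 11 higher leukocyte markers. The endothelial count moved by over 1.5 times without the EDL ERRalpha/ERRgamma library numbered 1. The leukocyte count did so without that library, without EDL library 1 of the ERRalpha or the ERRbeta/ERRgamma class, without soleus ERRalpha library 3, or without soleus ERRbeta/ERRgamma library 2. The 12 tendon markers had 2 higher and 4 lower (21.3 to 47.9 in soleus and 28.9 to 68.8 in EDL), and smooth muscle and pericyte markers had 3 higher and 2 lower of 12, or 6 higher without EDL ERRbeta/ERRgamma library 3 (148.6 to 201.7 in soleus and 122.4 to 176.1 in EDL). Red blood cell markers had 1 higher of 5 tested, and 0 to 5 when any 1 library was left out (458.2 to 3927 in soleus and 264.4 to 4333 in EDL). Both upper ends came from the ERRalpha/ERRgamma libraries numbered 2, which share an animal number. The next library summed to 982.5 in soleus and to 624.4 in EDL, and the count was 0 without that soleus library and 5 without that EDL library. No marker with a value was at 0 libraries in either muscle, and Cd3e and Cd79a, markers of lymphocytes, and Slc4a1, of red blood cells, were not tested. Their part in the secreted factor and receptor results was not tested.

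Among myokines, cytokines and hormones, 23 of 67 tested were higher and 8 lower, and 11 were higher and 5 lower at 2-fold or more. The called share was 46.3%, beside 55.5% of all genes, and 23.9% passed 2-fold, beside 12.3%. Metrnl, a myokine induced by exercise, ran at 1.32, 2.43 and 3.00 in soleus, against -0.34, 0.38 and 0.73 in EDL, without overlap (2.09 ± 0.16, limma adjusted p = 1.77e-09), while its relative Metrn ran at 2.31, 2.71 and 3.12 in soleus, against 3.74, 4.19 and 4.30 in EDL and was lower in every soleus library (-1.35 ± 0.10, limma adjusted p = 7.61e-10). Exons of Metrn overlap another annotated gene on the same strand, from which its counts may not be separable. Fndc5, the precursor of irisin, ran at 6.06, 6.27 and 6.41 in soleus, against 3.99, 4.58 and 4.81 in EDL (1.75 ± 0.08, limma adjusted p = 1.86e-12). Fractalkine, Cx3cl1, was higher by 2.12 ± 0.12, limma adjusted p = 2.63e-11, and osteocrin, Ostn, by 0.94 ± 0.19, limma adjusted p = 0.000348 with overlapping libraries. Agt, the precursor of angiotensin, ran at -0.80, 0.44 and 1.07 in soleus, against 1.65, 1.99 and 2.19 in EDL and Enho, the precursor of adropin, at 1.4, 1.49 and 2.03 in soleus, against 2.31, 3.25 and 4.27 in EDL. Both lay lower in all soleus libraries (-1.67 ± 0.15, limma adjusted p = 1.2e-08 and -1.63 ± 0.20, limma adjusted p = 1.32e-06). Il15 was lower by a difference of -0.58 ± 0.12, limma adjusted p = 0.000415. Interleukin 6 and leukaemia inhibitory factor were near the detection limit: Il6 had a value in 6 soleus and 8 EDL libraries and was not called (0.24 ± 0.46, limma adjusted p = 0.686), and Lif fell below the level filter.

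Factors that act on nerve were split between the muscles, with 13 higher and 7 lower of 33 tested. At 2-fold or more 5 were higher and 6 lower. Lgi1, a secreted protein known for organising synapses in the brain, ran at 3.08, 3.602 and 4.16 in soleus, against -3.31, -2.07 and -0.53 in EDL, more than 3 log2 units apart (5.51 ± 0.22, limma adjusted p = 2.23e-13). The laminin-related guidance gene Ntn4 was higher by 1.52 ± 0.13, limma adjusted p = 7.57e-09 and the brain-derived neurotrophic factor Bdnf by 1.03 ± 0.20, limma adjusted p = 0.000211. Lower in soleus were the motor neuron survival factors Gdnf and Nrtn, both ligands of the Ret receptor, and Ntf5, a ligand of TrkB. Gdnf ran at -4.81, -4.03 and -3.19 in soleus, against -3.05, -1.86 and -1.13 in EDL in 7 soleus and 9 EDL libraries (-1.94 ± 0.33, limma adjusted p = 8.66e-05), Nrtn differed by -1.93 ± 0.34, limma adjusted p = 9.57e-05 and Ntf5 by -1.62 ± 0.18, limma adjusted p = 2.17e-07. The Ntf5 libraries did not overlap. The repellent Sema3a was lower by a difference of -2.06 ± 0.31, limma adjusted p = 1.47e-05. On the receptor side Ret was higher by 0.66 ± 0.20, limma adjusted p = 0.00787 and the coreceptor Gfra1 was not called (-0.22 ± 0.19, limma adjusted p = 0.325). Nell1, a secreted protein with thrombospondin-like repeats, had a value in 0 of 9 soleus and 8 of 9 EDL libraries (Fisher's exact test, two-sided, p = 0.000411, adjusted p = 0.183), which did not pass.

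Receptors as a whole were higher in soleus in 89 cases and lower in 36 of 230 tested, beside 31.6% and 23.9% of all genes, and 32 were higher and 9 lower at 2-fold or more. Of 102 G protein-coupled receptors tested, 38 were higher and 15 lower, and 17 were higher and 4 lower at 2-fold or more. That is 52% called and 20.6% at 2-fold, beside 55.5% and 12.3% of all genes. The protease-activated receptors were among those with the larger differences. F2r, the main thrombin receptor, ran at 2.96, 3.31 and 3.81 in soleus, against -0.69, -0.16 and 0.77 in EDL, without overlap (3.36 ± 0.14, limma adjusted p = 3.69e-13). F2rl1, which is cut by trypsin-like proteases, ran at -1.39, 0.53 and 1.52 in soleus, against -4.82, -3.10 and -2.47 in EDL and was also higher in every soleus library (3.27 ± 0.32, limma adjusted p = 6.94e-08). F2rl3, a further thrombin receptor, went the other way, at -4.86, -3.74 and -1.62 in soleus, against -2.06, -0.84 and -0.28 in EDL, with an overlap (-2.42 ± 0.34, limma adjusted p = 6.33e-06). Prothrombin itself, F2, had a value in all 9 soleus libraries and in none of the 9 EDL libraries (mean -0.31 in soleus; Fisher's exact test, two-sided, p = 4.11e-05, adjusted p = 0.0772).

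The natriuretic peptide clearance receptor Npr3 ran at 1.97, 3.05 and 3.601 in soleus, against 0.05, 0.60 and 1.91 in EDL, without overlap (2.22 ± 0.22, limma adjusted p = 5.29e-08), while the signalling receptor Npr1 was not called (-0.02 ± 0.08, limma adjusted p = 0.871). The adhesion receptor Adgrg2 was higher by 2.88 ± 0.37, limma adjusted p = 2.17e-06. Lower in soleus were the melanocortin receptor Mc5r, detected in 8 soleus libraries (-2.79 ± 0.28, limma adjusted p = 1.1e-07), and the orphan receptor Gprc5c (-1.63 ± 0.14, limma adjusted p = 9.57e-09).

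Receptor tyrosine kinases and coreceptors had 18 higher and 2 lower of 40 tested, together 50%, beside 55.5% of all genes, with 6 and 1 at 2-fold or more. The 2 lower ones were Epha7, a receptor of ephrins, and Met, the receptor of hepatocyte growth factor. Epha7 ran at -4.93, -4.0 and -3.14 in soleus, against -1.398, -0.79 and -0.56 in EDL, without overlap (-3.19 ± 0.24, limma adjusted p = 1.08e-09), and Met differed by -0.31 ± 0.08, limma adjusted p = 0.00271. Fgfr1 was higher by 0.53 ± 0.06, limma adjusted p = 4.95e-07. Of the cytokine, hormone and adipokine receptors, 20 of 56 tested were higher and 11 lower, and 6 were higher and 3 lower at 2-fold or more. That is 55.4% called and 16.1% at 2-fold, beside 55.5% and 12.3% of all genes. The Fn14 receptor gene Tnfrsf12a was higher by 1.82 ± 0.23, limma adjusted p = 1.32e-06 and Il6ra by 1.21 ± 0.19, limma adjusted p = 2.89e-05. The ciliary neurotrophic factor receptor Cntfr ran at -3.22, -2.32 and -0.46 in soleus, against -0.74, 0.77 and 2.35 in EDL, a lower level with overlap (-3.05 ± 0.40, limma adjusted p = 2.99e-06). Lower without overlap were the netrin receptor Unc5a (-1.29 ± 0.11, limma adjusted p = 4.08e-09), the growth hormone receptor Ghr (-0.64 ± 0.07, limma adjusted p = 2.23e-07), the adiponectin receptor Adipor1 (-0.53 ± 0.04, limma adjusted p = 5.45e-10) and the lipoprotein receptor Vldlr (-0.96 ± 0.09, limma adjusted p = 2.79e-08).

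Ion channels and pumps had 52 higher and 50 lower members of 160 tested, beside 31.6% and 23.9% of all genes, with 30 higher and 25 lower at 2-fold or more. The balance turned with the processing: 50 were higher and 51 lower with libraries recentred, 48 and 50 with the replicate block, and 27 and 38 with a stricter filter on low values. The genes of calcium entry and release leaned to EDL: 16 of 29 were lower in soleus and 4 higher, with 7 lower and 2 higher at 2-fold or more. The ryanodine receptor Ryr1, which releases calcium from the sarcoplasmic reticulum, ran at 5.86, 6.41 and 6.88 in soleus, against 6.99, 7.25 and 7.68 in EDL (-0.86 ± 0.11, limma adjusted p = 1.49e-06), and the voltage sensor Cacna1s at 6.26, 6.502 and 6.69 in soleus, against 6.89, 7.08 and 7.33 in EDL (-0.59 ± 0.06, limma adjusted p = 5e-08). Both lay lower in every soleus library. The junctophilins Jph1 and Jph2, which tie the reticulum to the transverse tubules, differed by -1.48 ± 0.05, limma adjusted p = 5.04e-14 and -1.69 ± 0.08, limma adjusted p = 3.03e-12. Lower as well were the subunits Cacng1 (-1.18 ± 0.08, limma adjusted p = 6.47e-10) and Cacnb1 (-0.59 ± 0.06, limma adjusted p = 9.29e-08), the inositol trisphosphate receptor Itpr1 (-1.56 ± 0.10, limma adjusted p = 1.95e-10) and the calcium sensor Stim2 (-1.68 ± 0.09, limma adjusted p = 2.03e-11). Its relative Stim1 differed little (-0.13 ± 0.04, limma adjusted p = 0.0153). Cacna2d4, an auxiliary subunit, had -6.03, -5.98 and -4.29 in soleus, against -0.95, 0.39 and 0.87 in EDL in 5 soleus and 9 EDL libraries (-5.78 ± 0.32, limma adjusted p = 4.93e-10). The summed level of the list was at most 1184 in soleus, and every EDL library lay above that, up to 1861.

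The 4 calcium genes higher in soleus were Cacna1a, the pore of P/Q-type channels, Cacna2d2, Tmem38b, a potassium counter-ion channel of the reticulum, and Orai1, the store-operated pore. Cacna1a ran at -0.26, 0.0068 and 0.37 in soleus, against -2.83, -2.40 and -1.69 in EDL, without overlap (2.33 ± 0.15, limma adjusted p = 1.43e-10), and Tmem38b at 5.06, 5.25 and 5.53 in soleus, against 4.39, 4.56 and 4.66 in EDL (0.76 ± 0.05, limma adjusted p = 6.29e-10). Orai1 differed by 0.28 ± 0.07.

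Potassium channels had 10 higher and 13 lower of 36 tested, and 17 of these 23 passed 2-fold. Kcnc4 and Kcnc1 belong to the Kv3 family, whose channels repolarise quickly. Kcnc4 ran at -1.22, -0.48 and 0.69 in soleus, against 3.59, 3.79 and 3.85 in EDL (-4.19 ± 0.18, limma adjusted p = 4.7e-13) and Kcnc1 at 1.58, 2.37 and 2.72 in soleus, against 3.50, 3.71 and 4.02 in EDL (-1.50 ± 0.11, limma adjusted p = 9.92e-10). Both lay lower in every soleus library. The modulatory subunits Kcnf1 (-4.02 ± 0.33, limma adjusted p = 7.31e-09), Kcng4 (-2.01 ± 0.28, limma adjusted p = 6.51e-06) and Kcnab1 (-2.84 ± 0.22, limma adjusted p = 1.99e-09) were lower too. Higher in soleus were the ERG channel Kcnh2 (2.58 ± 0.29, limma adjusted p = 5.52e-07), the G protein-gated Kcnj3 (2.52 ± 0.34, limma adjusted p = 4.53e-06), and the calcium-activated channels Kcnma1 (1.24 ± 0.08, limma adjusted p = 2.64e-10) and Kcnn3 (1.57 ± 0.28, limma adjusted p = 9.05e-05). Among inward rectifiers Kcnj2 was higher (0.77 ± 0.08, limma adjusted p = 2.47e-07), while Kcnj12 (-0.97 ± 0.07, limma adjusted p = 7.76e-10) and the ATP-sensitive pore Kcnj11 (-0.63 ± 0.05, limma adjusted p = 1.1e-09) were lower.

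The sodium channel of adult muscle, Scn4a, ran at 4.66, 4.94 and 5.01 in soleus, against 5.63, 5.76 and 5.95 in EDL (-0.91 ± 0.06, limma adjusted p = 1.95e-10). It was lower in all soleus libraries. The chloride channel Clcn1, which stabilises the resting membrane, ran at 3.15, 3.29 and 3.61 in soleus, against 4.29, 4.54 and 4.67 in EDL, also without overlap (-1.18 ± 0.05, limma adjusted p = 4.23e-13). The intracellular chloride channel protein Clic4 was higher by 1.36 ± 0.08, limma adjusted p = 3.18e-11. The beta subunits of the sodium pump went in different directions: Atp1b1 ran at 7.59, 7.81 and 7.89 in soleus, against 6.27, 6.89 and 7.23 in EDL (0.97 ± 0.09, limma adjusted p = 4.95e-08), while Atp1b2 ran at 0.89, 1.63 and 2.13 in soleus, against 5.09, 5.34 and 5.65 in EDL (-3.75 ± 0.13, limma adjusted p = 4.38e-14). Neither gene overlapped between the muscles. The modulator Fxyd6 was higher by 1.06 ± 0.10, limma adjusted p = 5.13e-08 and Fxyd1, phospholemman, was not called (0.05 ± 0.04, limma adjusted p = 0.265).

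Of ligand-gated, purinergic and TRP channels 14 were higher and 7 lower of 36 tested, and 8 were higher and 3 lower at 2-fold or more. The neuronal nicotinic subunit Chrna2 ran at -0.20, 1.01 and 1.88 in soleus, against -5.51, -3.27 and -0.86 in EDL in 9 soleus and 8 EDL libraries (4.23 ± 0.54, limma adjusted p = 2.43e-06). The purinergic channel P2rx5 was higher by 1.75 ± 0.08, limma adjusted p = 6.45e-13, the cation channel Trpc1 by 2.09 ± 0.22, limma adjusted p = 1.49e-07 and the magnesium channel Trpm6 by 3.31 ± 0.41, limma adjusted p = 1.25e-06. The pacemaker channel Hcn4 was lower (-2.41 ± 0.39, limma adjusted p = 4.09e-05). The aquaporin Aqp2 had a value in 8 soleus and 0 EDL libraries, which did not pass (Fisher's exact test, adjusted p = 0.183), and Aqp4, the water channel of fast fibre membranes, was lower by a difference of -0.78 ± 0.16, limma adjusted p = 0.000314.

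**Figure D4:**
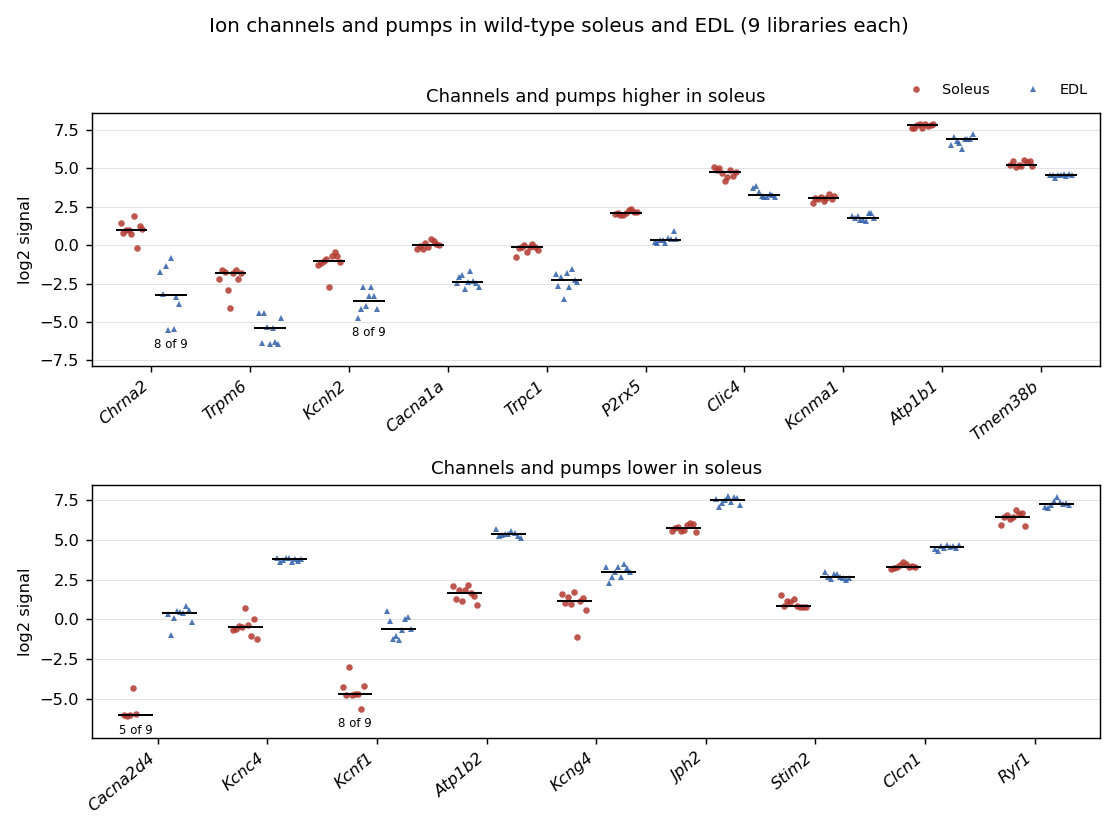
Log2 signal (y axis) of channels and pumps higher in soleus (upper panel) and lower in soleus (lower panel) in the 9 wild-type soleus (red circles) and 9 wild-type EDL libraries (blue triangles), with medians as black lines and the number of libraries with a value where it is below 9. Atp1b1 lies higher and Atp1b2 lower in every soleus library.

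The nerve and synapse genes had 53 higher and 33 lower of 141 tested, beside 31.6% and 23.9% of all genes, with 33 higher and 19 lower at 2-fold or more. Without the Schwann-rich soleus library 50 were higher and 43 lower. The acetylcholine receptor of the adult endplate is built of alpha, beta, delta and epsilon subunits, and the epsilon subunit replaces the embryonic gamma subunit. Its subunit genes did not move together. Chrna1 (alpha) ran at 2.69, 3.04 and 3.13 in soleus, against 1.28, 1.68 and 2.02 in EDL, higher in every soleus library (1.35 ± 0.10, limma adjusted p = 5.96e-10). Chrne (epsilon) ran at 0.23, 1.23 and 1.67 in soleus, against 2.34, 2.69 and 3.02 in EDL and Chrnb1 (beta) at 2.25, 2.83 and 3.20 in soleus, against 3.50, 3.68 and 4.22 in EDL. Both were lower in every soleus library, with differences of -1.55 ± 0.13, limma adjusted p = 1.1e-08 for Chrne and -0.96 ± 0.11, limma adjusted p = 4.14e-07 for Chrnb1. Chrnd (delta) differed by 0.44 ± 0.16, limma adjusted p = 0.0258 with overlap. The gamma gene Chrng had a value in 7 soleus and 5 EDL libraries, with highest signals of -1.21 and -2.32, and was not tested.

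Because the endplate genes went in different directions, the 250 bases before the start of 4 of them are shown, taken from RefSeq (GRCm38.p6). Chrna1 and Musk were higher in soleus, and Chrnb1 and Chrne were lower. Capitals mark the E-box (CANNTG), bound by myogenic factors, and the N-box (CCGGAA), bound by Ets factors at endplate nuclei. Both strands were searched, and the matches did not overlap each other.

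Chrna1: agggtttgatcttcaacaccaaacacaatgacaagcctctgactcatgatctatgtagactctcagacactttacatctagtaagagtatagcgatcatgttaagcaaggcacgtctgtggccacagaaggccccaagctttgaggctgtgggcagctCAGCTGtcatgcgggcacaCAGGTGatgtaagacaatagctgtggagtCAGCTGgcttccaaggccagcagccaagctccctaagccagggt
Musk: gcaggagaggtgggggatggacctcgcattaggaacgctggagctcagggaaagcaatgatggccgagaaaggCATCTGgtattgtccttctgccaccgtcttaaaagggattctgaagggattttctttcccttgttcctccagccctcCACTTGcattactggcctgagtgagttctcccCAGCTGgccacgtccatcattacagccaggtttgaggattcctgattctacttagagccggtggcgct
Chrnb1: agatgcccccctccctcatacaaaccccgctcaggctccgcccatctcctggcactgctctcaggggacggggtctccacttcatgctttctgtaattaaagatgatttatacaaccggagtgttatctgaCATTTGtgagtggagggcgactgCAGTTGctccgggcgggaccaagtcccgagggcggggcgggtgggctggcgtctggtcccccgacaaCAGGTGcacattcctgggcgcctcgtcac
Chrne: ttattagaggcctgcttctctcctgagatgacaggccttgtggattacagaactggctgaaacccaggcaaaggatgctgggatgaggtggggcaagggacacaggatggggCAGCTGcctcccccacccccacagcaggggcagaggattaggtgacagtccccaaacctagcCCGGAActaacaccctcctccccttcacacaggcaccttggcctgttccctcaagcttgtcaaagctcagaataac

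The positions are chr2:73580339-73580588 (minus strand) for Chrna1, chr4:58285712-58285961 (plus strand) for Musk, chr11:69795938-69796187 (minus strand) for Chrnb1 and chr11:70619195-70619444 (minus strand) for Chrne. The windows of Chrna1, Musk and Chrnb1 held 3 E-box matches each and no N-box match, and that of Chrne held 1 E-box match and 1 N-box match. Over all 27018 promoters of this length, 66.1% held an E-box match and 12.2% an N-box match. A match is a stretch of letters and not a binding site.

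The postsynaptic organisers were split as well. Musk, the kinase that gathers receptors under the nerve, ran at 2.36, 2.69 and 3.38 in soleus, against 0.54, 1.09 and 1.90 in EDL (1.60 ± 0.17, limma adjusted p = 1.37e-07) and Lrp4, its partner that binds agrin, at 0.27, 1.00 and 1.77 in soleus, against -0.15, 0.34 and 0.81 in EDL (0.65 ± 0.15, limma adjusted p = 0.00146). Musk did not overlap and Lrp4 did. The collagen tail gene Colq ran at 1.21, 2.21 and 3.20 in soleus, against -0.07, 0.89 and 1.08 in EDL (1.56 ± 0.20, limma adjusted p = 1.76e-06), while the acetylcholinesterase that it anchors, Ache, ran at 0.75, 1.30 and 1.62 in soleus, against 3.05, 3.34 and 3.95 in EDL (-2.10 ± 0.09, limma adjusted p = 9.03e-13). Neither gene overlapped between muscles. Exons of Colq overlap those of another annotated gene on the same strand, from which its counts may not be separable. Rapsn, the receptor-clustering protein, differed by -0.27 ± 0.06, limma adjusted p = 0.00118. Agrn (0.06 ± 0.11, limma adjusted p = 0.68) and Dok7 (0.05 ± 0.08, limma adjusted p = 0.621) were not called. The Ets factor Gabpa was higher by 0.45 ± 0.07, limma adjusted p = 3.94e-05, and the kinase Prkca was lower (-1.34 ± 0.06, limma adjusted p = 8.2e-13). In total, 17 of the 48 tested postsynaptic genes were higher and 13 lower, and 6 were higher and 5 lower at 2-fold or more.

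Genes known to rise after denervation were higher in soleus in 15 of 29 tested and lower in 7, beside 31.6% and 23.9% of all genes. At 2-fold or more 11 were higher and 6 lower. Sarcolipin, Sln, an inhibitor of the calcium pump, ran at 4.32, 5.05 and 7.62 in soleus, against -1.42, -0.11 and 1.62 in EDL, without overlap (5.21 ± 0.33, limma adjusted p = 1.12e-10). The adhesion molecule Ncam1 ran at -0.31, 0.33 and 1.06 in soleus, against -1.43, -1.16 and -1.07 in EDL (1.59 ± 0.17, limma adjusted p = 2.11e-07), the embryonic myosin Myh3 differed by 2.67 ± 0.29, limma adjusted p = 3e-07 and Hdac9 by 1.097 ± 0.18, limma adjusted p = 4.08e-05. Runx1 was higher by 0.86 ± 0.20, limma adjusted p = 0.00134, and Hdac4 was not called (-0.04 ± 0.14, limma adjusted p = 0.818). On the lower side Gadd45a, a stress gene that rises after denervation, ran at 2.43, 3.31 and 3.87 in soleus, against 3.63, 4.33 and 5.09 in EDL (-1.20 ± 0.14, limma adjusted p = 4.43e-07), the perinatal myosin Myh8 differed by -1.24 ± 0.16, limma adjusted p = 2.76e-06 and Cd24a by -2.06 ± 0.11, limma adjusted p = 1.43e-11. Actc1 was lower by a difference of -2.18 ± 0.51, limma adjusted p = 0.00128, but within the classes its difference ran from -0.94 to -4.52. Several members are also slow fibre or myogenic genes.

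**Figure D5:**
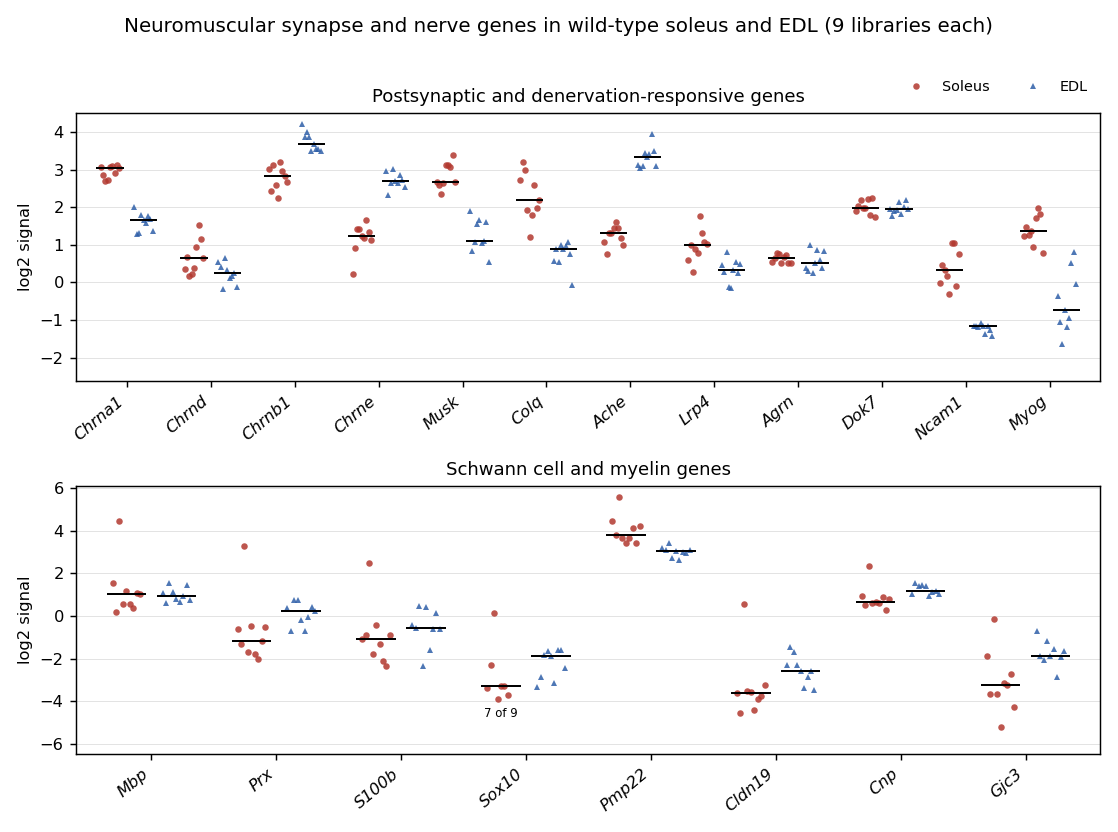
Log2 signal (y axis) of endplate and denervation-responsive genes (upper panel) and Schwann cell genes (lower panel) in the 9 wild-type soleus (red circles) and 9 wild-type EDL libraries (blue triangles), with medians as black lines and the number of libraries with a value where it is below 9. Chrna1 and Musk lie higher and Chrne and Ache lower in every soleus library; a single soleus library lies above all other soleus libraries for each Schwann cell gene drawn.

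A single soleus library carried a strong Schwann cell signal. It is the ERRalpha/ERRgamma class library numbered 3, and it held the highest soleus value of 26 of the 28 Schwann cell and myelin genes detected in at least 6 soleus libraries. Periaxin, Prx, a protein of the myelin sheath, reached 3.30 there, against -2.01 to -0.46 in the other 8 soleus libraries, and Sox10, a factor of glial cells, reached 0.15, against -3.88 to -2.31 in the 6 others that detected it. With this library, 6 of the 26 tested genes were higher in soleus and 2 lower, with a median difference of -0.37. Without it, 4 were higher and 13 lower, with a median of -0.65. Prx then differed by -1.27 ± 0.25 (limma adjusted p = 0.000275), whereas with all 18 libraries it was not called (-0.79 ± 0.48, limma adjusted p = 0.172). Mbp was not called either way. Of the higher genes, Cryab, a chaperone that fibres also express, was as much higher without this library (1.71 ± 0.11) as with it (1.71 ± 0.11). The summed level of the list was 657.2 to 1210 in soleus and 263.6 to 436.2 in EDL, and Cryab made up most of it.

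Genes of the axon and of transmitter release were near the detection limit: 13 of 23 with a value were not tested, and the neurofilament genes Nefl, Nefm and Nefh had a value in 3, 6 and 2 soleus libraries and in 1, 3 and 5 EDL libraries. Of the 10 tested, 4 were higher and 1 lower. That is 50% called and 30% at 2-fold, beside 55.5% and 12.3% of all genes. Sv2b, a synaptic vesicle protein, ran at -1.47, -0.14 and 1.53 in soleus, against -6.20, -5.11 and -4.51 in EDL in 9 soleus and 7 EDL libraries (5.21 ± 0.40, limma adjusted p = 7.57e-09). Uchl1, a ubiquitin hydrolase of neurons that slow fibres also contain, ran at 2.79, 3.54 and 4.12 in soleus, against -0.26, 0.40 and 1.00 in EDL (3.15 ± 0.16, limma adjusted p = 3.64e-12). The vesicle protein Vamp1 was lower (-0.61 ± 0.06, limma adjusted p = 2.55e-08) and Vamp2 was higher (0.22 ± 0.05, limma adjusted p = 0.00093).

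Synaptic adhesion molecules and organisers showed some of the largest differences of this group, with 14 higher and 10 lower of 33 tested. At 2-fold or more 10 were higher and 6 lower. The cadherin Cdh22 ran at 0.17, 0.74 and 1.33 in soleus, against -6.15, -5.10 and -3.04 in EDL, without overlap (5.48 ± 0.39, limma adjusted p = 5.86e-10), and the scaffold Homer2 at 3.70, 4.06 and 4.61 in soleus, against 0.74, 1.30 and 1.54 in EDL (2.86 ± 0.09, limma adjusted p = 1.07e-14). In the other direction Cntnap2, a neurexin-like protein, ran at -6.31, -6.24 and -5.20 in soleus, against -0.55, 0.04 and 0.76 in EDL in 7 soleus and 9 EDL libraries (-6.04 ± 0.27, limma adjusted p = 7.01e-12), and Flrt1 at -5.94, -5.41 and -4.25 in soleus, against -2.43, -1.42 and -0.66 in EDL (-3.82 ± 0.35, limma adjusted p = 1.96e-08). Lrtm2 had a value in 4 soleus libraries and in all 9 EDL libraries (-5.35 ± 0.31, limma adjusted p = 2.06e-09). A missing library was left out of each of these fits, so where a muscle lacked values the difference rests on the libraries that had them. With missing values set to the lowest of the table, the difference of Lrtm2 was -7.27.

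The difference between muscles was next compared across the 3 classes. A test of the interaction called 1 of 12536 genes, which was not called with missing values set to the lowest value (0.00798%; 1201 genes or 9.58% at an unadjusted p under 0.05), and no member of the 5 groups was called. Each called difference printed above with its adjusted p had the same sign in all 3 classes wherever a class could be fitted. Detection in libraries was also compared between muscles, and no gene passed at an adjusted p under 0.05 with Fisher's exact test (278 of 16894 at an unadjusted p under 0.05). The smallest p that this test can give had an adjusted p of 0.0772, so even full separation did not pass and the result does not decide on single genes. In all, 37 genes were detected in at least 8 soleus and at most 1 EDL library and 14 genes in at least 8 EDL and at most 1 soleus library. Besides F2, the motor neuron and heart factor Isl1 was detected in 8 soleus and 0 EDL libraries. It was low where detected, with a mean of -3.72.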

How the data were processed

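RNA was sequenced from whole soleus and EDL muscles. The authors deposited 1 table of log2 signals after quantile normalization, per the file name and values. The mapping and counting used Partek and mm10 (GRCm38.p6), per the submitters' processing notes, and whether counting used the strand is not given in the sources used here. Quantile normalization gives every library nearly the same distribution, so depth is unknown and a shift of all genes cannot be seen. A library prepared from 400 ng of RNA was amplified for 10 cycles, per the labels' protocols.

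Gene rows whose symbols had turned into dates (25 with a value) were left out, and a missing value was treated as not detected. Groups were read from the column names, with FX- taken as wild type and FXp as carrying Cre. Differences came from limma (version 3.58.1, run under R 4.3.3), which allowed the variance to depend on intensity and held class as a covariate. P-values were adjusted by Benjamini-Hochberg over all genes tested. Genes had to lie above the 25th percentile of mean level over the 18 wild-type libraries and to have at least 2 values in each muscle. Detection was compared with Fisher's exact test. The fit was also run on simulated data with independent noise and few changed genes, without missing values or shared animals. That run cannot show how pairing or missing values affect the calls. By the animal numbers, the 9 libraries of each muscle came from 9 animals.

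The same animal number in both muscles marks the same animal, which pairs 7 soleus with 7 EDL libraries. Deviations from the group means correlated at 0.0348 to 0.307 (median 0.169) within these 7 pairs and at -0.222 to 0.111 in 20 other pairs. The main fit had no block.

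The members and gene lists were chosen with earlier results of these data known. Named genes were the 10 largest called differences in each direction outside contractile and metabolic lists, at or above the median level and without overlap, and up to 4 called members in each direction from each list. List members detected in at least 8 libraries of 1 muscle and at most 1 of the other were added, with the ERR genes by level. Other genes named were chosen after their values were seen, and some genes that the rule names are not reported here. Exons of 55 of the 214 genes named by this rule overlap those of another gene, 10 of them on the same strand. Metrn, Colq and Tmem38b are among those on the same strand. Overlaps on the other strand include those of Itga4, Zic1, Unc5a, Prox1, Maf, Lgi1 and Ache. If counting ignored the strand, these values may hold reads of both genes.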

Additional observations from a re-analysis of the deposited data

Results flagged for a closer look

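In 24 of 423 groups tested (1 muscle and 1 gene each, with up to 9 libraries), the highest or the lowest library lay far from the other libraries of its muscle, by Dixon's criterion at 95%. Chance flags about 1 in 20 groups. These values are log2 signals of the library that stood apart. In soleus, the highest library stood apart for C1qtnf3 (2.08), Cacna2d4 (-4.29), Pmp22 (5.57) and Sln (7.62). The lowest soleus library stood apart for Ano3 (-6.13), Atp1b4 (0.326), Igfals (-3.70), Igfn1 (-2.32), Kcnh2 (-2.75), Tbx18 (-2.10) and Vldlr (4.42). In EDL, the highest library stood apart for Ache (3.95), Gabrr1 (-0.696), Npr3 (1.91), Rxrg (4.62), Scn4a (5.95) and Six2 (1.63). The lowest EDL library stood apart for Btg2 (1.61), Colq (-0.0721), F2rl1 (-4.82), Gdf1 (0.49), Islr2 (-4.72), Sema3e (-6.25) and Wif1 (-4.43). No library held more than 2 of these values. The value of Pmp22, a myelin gene, came from the soleus library with the strong Schwann cell signal.

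The difference between muscles varied with class for 1 gene, Chia1, an acidic chitinase, by limma's test of the interaction (adjusted p = 0.0172). Its difference was -5.05 ± 0.36 in the ERRalpha/ERRgamma class, -0.38 ± 0.41 in the ERRalpha class and -1.51 ± 0.41 in the ERRbeta/ERRgamma class (SE). Chia1 had a value in 7 soleus and 9 EDL libraries. The missing soleus values were 1 in the ERRalpha class and 1 in the ERRbeta/ERRgamma class and were left out of the fit, which are the classes with the smaller differences. With missing values set to the lowest value, Chia1 was not called (limma adjusted p = 0.899). Leaving out 1 library at a time gave 0 to 2 called genes.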

How the results depend on the processing

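The values limit what can be said: depth is unknown, so values near the detection limit have no counting error, and low genes such as those of axons were mostly not tested. Of 7035 called genes, 1564 had a difference of at least 1 on the log2 scale, as did 61 transcription factors, 62 secreted factors, 41 receptors, 55 channels and pumps and 52 nerve and synapse genes. A stricter filter on low values, which tested fewer genes, called 69 secreted factors, 75 receptors, 65 channels and pumps and 51 nerve and synapse genes. With 3 libraries per muscle, the fit within the ERRalpha/ERRgamma class called 4221 genes, 65 secreted factors and 80 receptors, and that within the ERRbeta/ERRgamma class called 4026 genes, 73 secreted factors and 65 receptors. The interaction test called 3 genes, Chia1 not among them, with missing values set to the lowest value and 0 with the stricter filter, and the cause was not tested. Detection called 26 genes when a value had to lie above the 5th percentile of the table.

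Leaving out 1 library at a time gave 6734 to 6978 called genes, 167 to 175 transcription factors, 105 to 119 secreted factors, 115 to 126 receptors, 101 to 105 channels and pumps and 80 to 93 nerve and synapse genes. It gave 0 to 2 genes in the interaction test, 0 to 0 in the detection test and 6837 to 7392 in the knockout-labelled libraries. The replicate block, which pairs the 7 animals that gave both muscles, called 6430 genes, of which 6133 were called without it, and the same 7 animals without the block gave 6235. This last setting and the counts without the Schwann-rich library were chosen after seeing the data. With libraries recentred, 3412 genes were higher and 3559 lower, with a median difference of 0.011 against 0.073. Of 209 named genes with a difference, none reversed under any setting run, but 58 lost their call in at least 1 setting. Within a single class 29 to 35 genes lost it, and without 1 class 7 to 10 did. The calls lost under the block included Cry2, Wnt10b, Tyro3, Plxna3 and Gldn, and leaving out 1 library lost those of Htr7, Gldn and Wnt10b.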
